A study of Mus musculus with 12 samples.

Results

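The transcripts described here are those of 10 genes that move bile acids and other organic anions across the hepatocyte membrane: Slco1a1, Slco1a4, Slco1b2, Slco2b1, Slc10a1, Abcb11, Abcb4, Abcc2, Abcc3 and Abcc4. They were chosen by symbol, among 22180 genes that had a probe set annotated to a single symbol, and all 10 were on the array. Slco2b1 had 2 such probe sets and the other genes 1 each, and a gene with several was represented by its brightest. Alb, the gene of the hepatocyte product albumin, read 13.44 ± 0.028 (SD, n = 6, log2) in GFP and 13.50 ± 0.033 (n = 6) in hApoF livers.

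RNA came from livers of male C57BL6/J mice aged 8 to 10 weeks, killed 4 days after tail vein injection of an Ad5 adenovirus and after a 6 h fast. The virus carried green fluorescent protein (GFP, the control, arrays 1 to 6) or human apolipoprotein F (hApoF, arrays 7 to 12), a secreted protein carried on lipoproteins. The comparison asks how liver transcripts respond to an excess of human ApoF. Both groups had a virus, uninjected livers were not analysed here, and neither the viral dose nor the promoter driving the transferred gene is given in the sources used here. The mouse Apof probe set read 11.06 ± 0.08 (SD, n = 6, log2) in GFP and 11.10 ± 0.11 (n = 6) in hApoF livers, and since the transferred gene is human this does not check the labels. The labels do not say array by array that each came from its own mouse, so the spread behind each p-value is that between samples.

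Bile acids return from the gut in portal blood and are taken up across the sinusoidal membrane of hepatocytes, by the sodium-coupled carrier NTCP (Slc10a1) and by organic anion transporting polypeptides (OATPs, the Slco genes). The bile salt export pump BSEP (Abcb11) secretes them into the canaliculus, where MDR2 (Abcb4) supplies phosphatidylcholine and MRP2 (Abcc2) exports conjugates such as bilirubin glucuronides. MRP3 and MRP4 (Abcc3, Abcc4) sit on the basolateral side and carry anions back to blood, a route known to be used when bile flow is blocked.

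Livers given hApoF had more Slco1a1 and Slco1a4 transcript than livers given GFP, 1.47-fold and 1.56-fold, and these were the only 2 of the 10 transcripts that passed the test (limma, adjusted p = 0.0063 and 0.025). Both encode uptake carriers. In whole liver, more cells of a type and more RNA per cell cannot be told apart. Over all genes, 2.11% passed as higher, 4.8% as lower and 6.91% in either direction. Among genes whose mean lay above the median of all probe sets, as it did for all 10 members, 3.03% passed as higher and 7.87% as lower. Of the 5 uptake genes 2 rose, 0 fell and 3 did not pass. None of the 3 canalicular and 2 basolateral efflux genes passed (limma), where 1 of the 5, Abcb11, had an unadjusted p under 0.05. An unadjusted limma p under 0.05 was also found for 4 of the 5 uptake genes. Over all 22180 genes it was found for 4716, in either direction. The median change was 0.23 for the uptake genes, 0.04 for the canalicular genes and 0.04 for the basolateral efflux genes on the log2 scale, beside 0.03 for all genes. Values are log2 scale throughout, and changes are hApoF minus GFP with the standard error (SE) of the fit.

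Upstream sequences are shown for the 2 genes that passed and for 2 genes, Slco1b2 and Abcb11, that share a match to an inverted repeat of the kind bound by the bile acid receptor FXR. The sequences are those of RefSeq (GRCm38.p6), in the direction of the gene, and stop before its outermost annotated start. Capitals mark the letters TATAAA (the TATA box core), AGGTCA (a hexamer bound by nuclear receptors) and AGNNCANTGACCT (an inverted repeat with 1 base between, which contains AGGTCA on the other strand), each searched on both strands. Slco1a1 is shown over chr6:141946963-141947212 (minus strand, 250 bases), Slco1a4 over chr6:141856285-141856470 (minus strand, 186 bases), Slco1b2 over chr6:141629268-141629451 (plus strand, 184 bases) and Abcb11 over chr2:69342617-69342866 (minus strand, 250 bases).
Slco1a1: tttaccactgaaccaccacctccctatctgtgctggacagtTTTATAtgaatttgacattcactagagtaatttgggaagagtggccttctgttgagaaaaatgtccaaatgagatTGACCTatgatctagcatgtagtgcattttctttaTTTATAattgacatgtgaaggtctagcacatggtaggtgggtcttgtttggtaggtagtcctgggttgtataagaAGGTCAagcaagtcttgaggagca
Slco1a4: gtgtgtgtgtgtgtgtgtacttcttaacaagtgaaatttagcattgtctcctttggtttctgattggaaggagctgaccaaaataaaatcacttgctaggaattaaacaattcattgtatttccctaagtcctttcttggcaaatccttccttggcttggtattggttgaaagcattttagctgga
Slco1b2: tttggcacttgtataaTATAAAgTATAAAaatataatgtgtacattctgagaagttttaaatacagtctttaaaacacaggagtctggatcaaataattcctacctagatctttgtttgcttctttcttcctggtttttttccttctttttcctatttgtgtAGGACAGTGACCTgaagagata
Abcb11: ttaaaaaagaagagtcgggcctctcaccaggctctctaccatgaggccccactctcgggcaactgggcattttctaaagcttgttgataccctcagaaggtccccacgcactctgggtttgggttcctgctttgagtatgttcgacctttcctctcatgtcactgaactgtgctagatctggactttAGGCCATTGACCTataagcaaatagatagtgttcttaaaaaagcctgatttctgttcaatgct

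The inverted repeat was written down after these sequences had been read, with N at each base where the 2 sites differ. The repeat therefore had to match both genes, and its share of all windows does not measure how rare such a match is. It is AGGACAGTGACCT in Slco1b2, starting at position -88 from the start used in the table, and AGGCCATTGACCT in Abcb11, at -63, and 21 of the 32851 upstream windows of 250 bases in the RefSeq table (0.0639%) hold it. AGGTCA was in the windows of 5 members (14% of all windows), at -134 and -24 in Slco1a1. TATAAA was in those of 3 members (12.4%). The window of Slco1a4 held none of these letters. Beyond the sequences shown, GTTAAT, a piece of the site of the hepatocyte factor HNF1, was in 1 member, Slco1b2 (6.43%), at -66. This match begins at the gene's outermost annotated start, right after the sequence shown, and so is not upstream of that start. TGACNNNGC, the core of the antioxidant response element, was in 2 members, Abcc2 and Abcc4 (10.2%), the first at -98. Windows were found for 9 of the 10 members, Abcc3 being the other, and these 9 had 13 windows. A member was counted if any of its windows held the letters, while the percentages are shares of single windows. These are letter matches, with no measurement of binding.

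Slco1a1 encodes OATP1A1, a sinusoidal uptake carrier that in mouse liver is known as a male-predominant transcript. In the 6 GFP arrays its level ran from 10.77 to 11.34 with a median of 11.10, and in the 6 hApoF arrays from 11.36 to 11.92 with a median of 11.62. Every hApoF array lay above every GFP array, a separation seen with hApoF higher in 1.49% of all genes. The nearest arrays were GFP 4, the highest of its group, and hApoF 7, the lowest of its group, while hApoF 12 was the highest of all. The means were 11.06 ± 0.22 (SD, n = 6) and 11.62 ± 0.19 (n = 6), and the change was 0.55 (SE 0.11, limma adjusted p = 0.0063), with a 95% interval of 0.32 to 0.79 that is not adjusted for the number of genes. An exact two-sided permutation test over all assignments of 6 of the 12 arrays gave p = 0.0022, the smallest it can give, and 0.043 after adjustment over all genes. The call was kept in each of the 12 fits that left out 1 array, with changes of 0.49 to 0.61 and limma adjusted p between 0.0030 and 0.020.

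Slco1a4 encodes OATP1A4, a carrier of bile acids, digoxin and many drugs that is known to be female-predominant in mouse liver. Its level ran from 7.60 to 8.41 (median 8.05) in GFP and from 8.23 to 9.16 (median 8.68) in hApoF livers. The groups overlapped: hApoF 8 and hApoF 11 lay below GFP 5, the highest GFP array, and the other 4 hApoF arrays lay above it. GFP 6 was the lowest array and hApoF 10 the highest. The means were 8.05 ± 0.27 (SD, n = 6) and 8.69 ± 0.37 (n = 6), a change of 0.64 (SE 0.16, limma adjusted p = 0.025, interval 0.30 to 0.98). The exact permutation p was 0.0065, and 0.075 adjusted over all genes, where only genes without overlap passed (4.98% of genes). The call was lost in 5 of 12 omissions, with limma adjusted p of 0.054 without GFP 2, 0.059 without GFP 6, 0.053 without hApoF 9, 0.052 without hApoF 10 and 0.054 without hApoF 12. It was also lost without GFP 4 and hApoF 12 together (0.068).

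**Figure D1:**
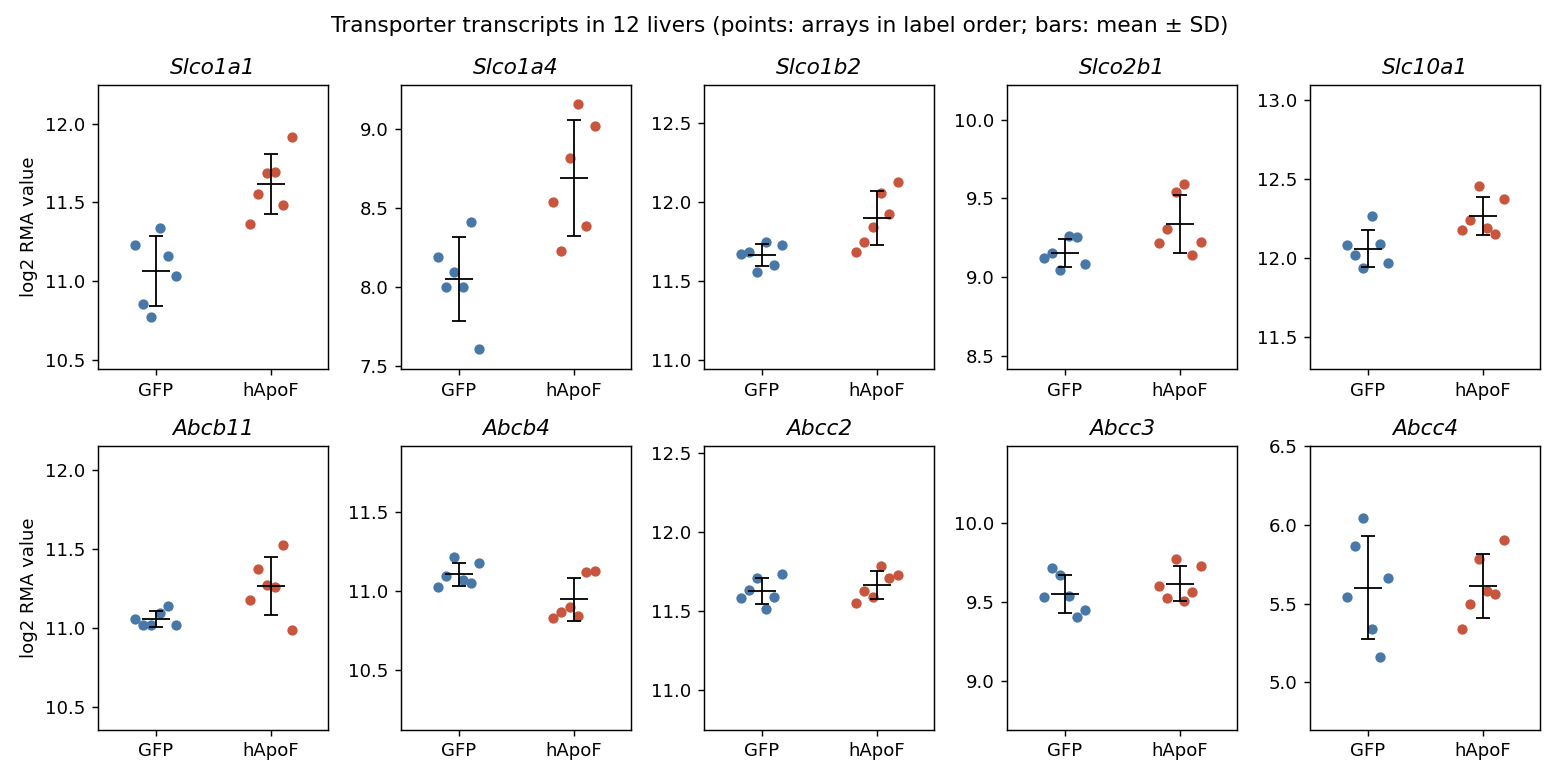
Log2 RMA value of each of the 10 transporter transcripts (1 panel per gene, each y axis covering the same width of the log2 scale) in the 6 GFP and 6 hApoF arrays, with points for arrays in label order and bars for the mean ± SD. The groups separate without overlap for Slco1a1, and 4 of 6 hApoF points stand above all GFP points for Slco1a4.

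Slco1b2, which encodes OATP1B2, an uptake carrier for unconjugated bile acids, ran from 11.56 to 11.75 (median 11.68) in GFP and from 11.69 to 12.13 (median 11.89) in hApoF livers. Of the 6 hApoF arrays 5 lay above all GFP arrays, and hApoF 7 fell within the GFP range. The change was 0.23 (SE 0.08, interval 0.06 to 0.41) and did not pass (limma, adjusted p = 0.103), nor did it in any of the 12 omissions (0.063 to 0.204). It passed with the trend and robust settings of eBayes (limma adjusted p = 0.041). The spread among hApoF arrays was larger, with an SD of 0.17 beside 0.07 in GFP.

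Slc10a1, the gene of NTCP, ran from 11.94 to 12.26 (median 12.05) in GFP and from 12.15 to 12.46 (median 12.22) in hApoF livers. GFP 4 stood above the other 5 GFP arrays, which all lay below the lowest hApoF array, hApoF 11, so the overlap between the groups rested on GFP 4. The change was 0.21 (SE 0.08, interval 0.04 to 0.37, limma adjusted p = 0.131), and without GFP 4 it was 0.25 (limma adjusted p = 0.053). It did not pass under any of the alternatives run.

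Slco2b1 encodes OATP2B1, a carrier of steroid sulfates and drugs. Its brighter probe set ran from 9.05 to 9.26 (median 9.14) in GFP and from 9.14 to 9.59 (median 9.27) in hApoF livers, with 3 of 6 hApoF arrays above all GFP arrays. These were hApoF 8, hApoF 9 and hApoF 10, and the other 3 lay within the GFP range. The change was 0.18 (SE 0.09, interval 0.00 to 0.37, limma adjusted p = 0.235). The dimmer probe set, with means of 5.20 and 5.39 that lie little above the array medians, gave 0.20 (SE 0.10, limma adjusted p = 0.268 over all single-symbol probe sets). Its 3 highest hApoF arrays were hApoF 8, hApoF 9 and hApoF 11. Both probe sets of the gene thus had a positive difference and neither passed.

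The 5 uptake genes all had positive differences, as did 12788 of all 22180 genes. They kept that sign in all 21 alternatives run for each. Some alternatives leave the difference itself as it is, such as the eBayes settings, the filter on dim genes and the exact test. There its sign could not change. Of the 5 genes 3 did not pass, and all share the arrays they were measured on. By the coordinates given above, Slco1a4 lies between Slco1b2 and Slco1a1 on chromosome 6. The changes of Slco1a1, Slco1a4 and Slco1b2 were 0.55, 0.64 and 0.23. Whether these changes differ was not tested.

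Abcb11, the gene of the bile salt export pump, was measured with little spread in GFP livers, from 11.02 to 11.14 (median 11.04), and ran from 10.98 to 11.52 (median 11.26) in hApoF livers. Of the hApoF arrays 5 lay above all GFP arrays, and 1, hApoF 12, lay below all of them. The SD was 0.18 in hApoF and 0.05 in GFP, a ratio of 3.76. The change was 0.21 (SE 0.08, interval 0.03 to 0.38) and did not pass (limma adjusted p = 0.154). Without hApoF 12 it was 0.26 and passed (limma adjusted p = 0.043), as it did without GFP 4 and hApoF 12 together (0.041). This array, hApoF 12, was the highest for Slco1b2. The inverted repeat shown above for Abcb11 also stood upstream of Slco1b2, and whether it bears on the level of either gene was not tested.

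Abcb4, which encodes the phosphatidylcholine floppase MDR2, was the only member with a negative difference. It ran from 11.03 to 11.22 (median 11.08) in GFP and from 10.83 to 11.13 (median 10.88) in hApoF livers. The arrays hApoF 7, hApoF 8, hApoF 9 and hApoF 10 lay below all GFP arrays, while hApoF 11 and hApoF 12 lay among them. The difference was -0.16 (SE 0.07, interval -0.32 to 0.00, limma adjusted p = 0.238), and it did not pass under any alternative run (limma adjusted p 0.118 to 0.390).

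Abcc2, the gene of the conjugate exporter MRP2, ran from 11.51 to 11.73 (median 11.61) in GFP and from 11.55 to 11.78 (median 11.67) in hApoF livers, with 5 of 6 hApoF arrays inside the GFP range. The difference was 0.04 (SE 0.07, limma adjusted p = 0.793), and its interval of -0.10 to 0.18 corresponds to 0.930-fold to 1.13-fold. Abcc3, the gene of MRP3, ran from 9.41 to 9.72 (median 9.54) and from 9.51 to 9.77 (median 9.58). The groups overlapped over most of that span, and the difference of 0.06 (SE 0.08, limma adjusted p = 0.685) had an interval of 0.934-fold to 1.17-fold. Abcc4, the gene of MRP4, ran from 5.16 to 6.04 (median 5.60) in GFP and from 5.34 to 5.90 (median 5.57) in hApoF livers. All 6 hApoF arrays lay inside the GFP range, and the GFP arrays spread most of all members, with an SD of 0.33. The difference was 0.01 (SE 0.14, limma adjusted p = 0.982), with an interval of 0.819-fold to 1.23-fold. Its sign changed in 8 of the 21 alternatives, some of which leave the difference itself as it is.

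**Figure D2:**
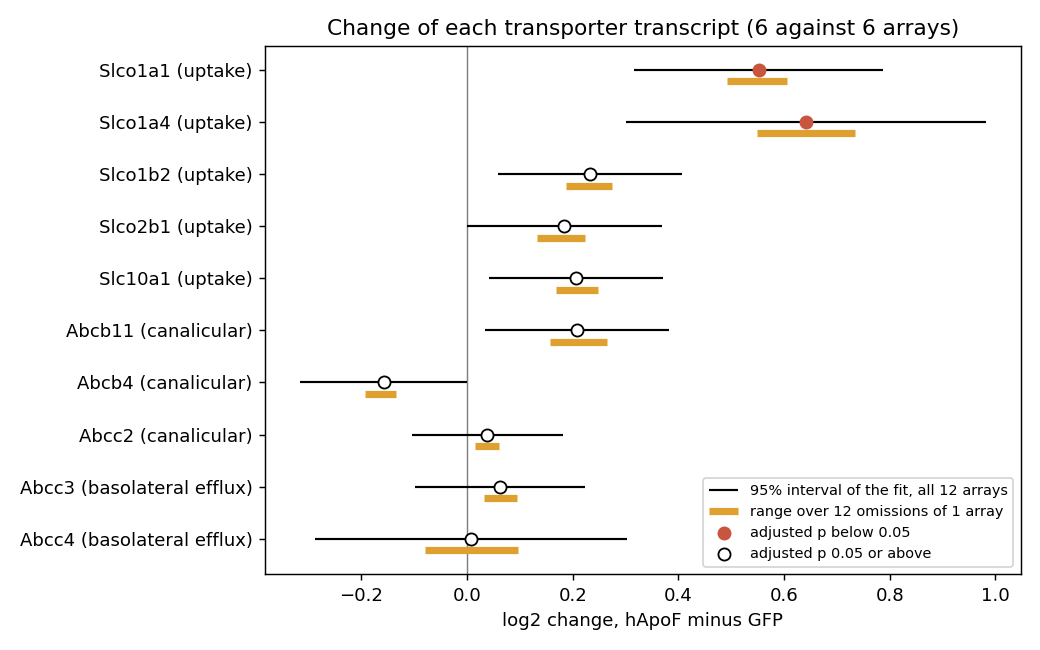
Log2 change (hApoF minus GFP) of each transporter transcript on the x axis, with the 95% interval of the limma fit on all 12 arrays (black) and the range over the 12 fits that left out 1 array (yellow). Filled points mark Slco1a1 and Slco1a4, the 2 with an adjusted p below 0.05, and Abcb4 alone lies left of 0.

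**Figure D3:**
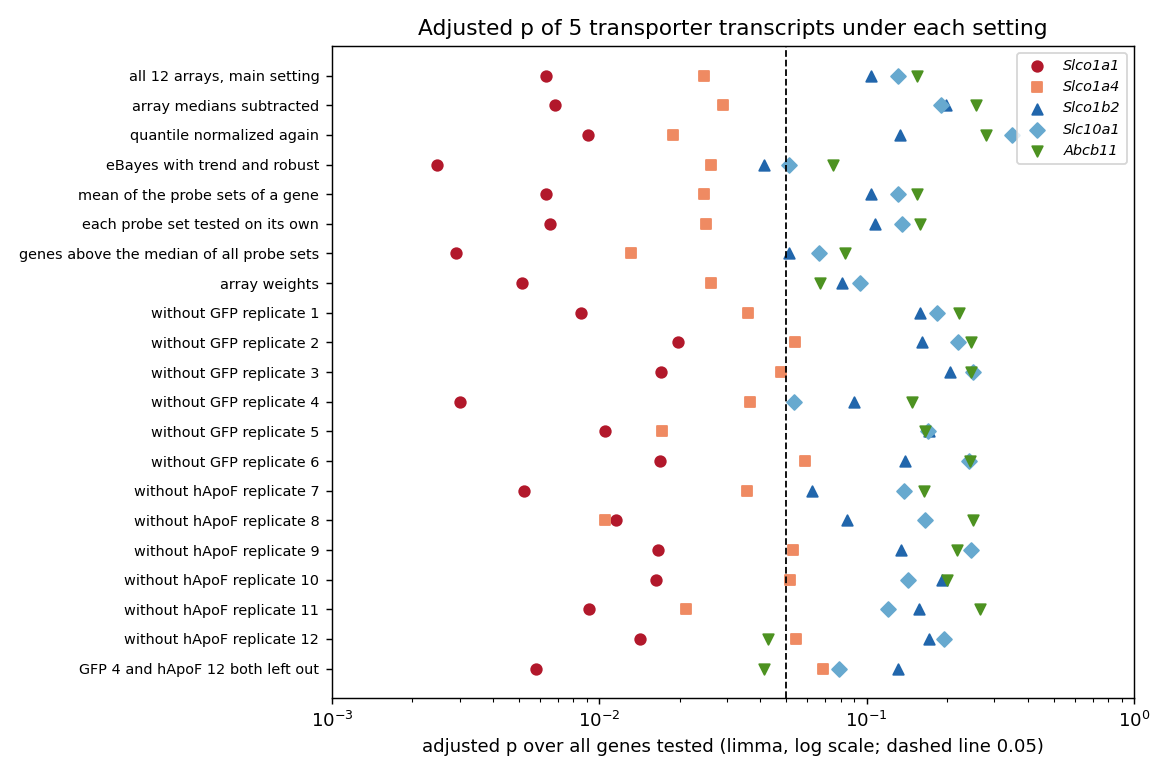
Adjusted p over all genes tested (limma, log x axis) for 5 transporter transcripts under each setting (rows). Slco1a1 stays left of the dashed line at 0.05 in every row, Slco1a4 crosses it in 6 rows, and Slco1b2 and Abcb11 cross it in 1 and 2 rows.

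The genes most like each called member were looked for among 10579 brighter named genes, by the correlation over the 12 arrays of deviations from each group's mean. For Slco1a1 they were Clmn, an actin-binding membrane protein gene (Pearson's r = 0.91, Spearman's rho = 0.92), Hsd3b5, a male-biased steroid dehydrogenase gene (0.88 and 0.83), and Gpr146, a G protein-coupled receptor gene (0.88 and 0.87). Without GFP 3 and hApoF 12, the arrays farthest from the median for Slco1a1, r was 0.83 to 0.85 for these. For Slco1a4 they were Fkbp5, a glucocorticoid-induced immunophilin gene (0.89 and 0.87), Slc25a51, the mitochondrial NAD carrier gene (0.84 and 0.80), and Zfp944 (0.84 and 0.79), with r of 0.70 to 0.80 without hApoF 8 and hApoF 10. These pairs are the highest of many, share arrays and normalization, and are given as a description. Between groups 1 of these 6 genes passed, Clmn, which rose by 0.40 (SE 0.08, limma adjusted p = 0.0090). The differences of Hsd3b5 (0.61, 0.154) and Gpr146 (0.28, 0.063) were also positive. Of the genes like Slco1a4, Fkbp5 had a difference of 0.22 (limma adjusted p = 0.178), Zfp944 of 0.05 (0.849) and Slc25a51 of -0.29 (0.114), the sign opposite to that of Slco1a4.

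Of the 11 other OATP genes, all measured, 0 passed in either direction (limma; 4 had an unadjusted p under 0.05, all higher; median change 0.12), and 9 of the 11 had means below the median of all probe sets. The lowest p were those of Slco2a1, a prostaglandin carrier (0.33, limma adjusted p = 0.061), and of Slco1a5, a close paralog of Slco1a1 and Slco1a4 (0.33, limma adjusted p = 0.092). The means of Slco1a5 were 3.31 and 3.64, well below the array medians, and whether its probes also bind transcripts of the brighter Slco1a genes was not tested. Slco2a1 passed without hApoF 7, with the trend and robust settings of eBayes, with dim genes filtered out and with array weights, and in those fits 1 gene of this list was called higher.

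Among 31 measured of 35 other hepatic and biliary transporters, 1 rose, 1 fell and 29 did not pass (median change -0.03). Slc22a27, an organic anion transporter gene of a rodent cluster, fell by 1.505 (SE 0.30, limma adjusted p = 0.0059, no overlap), from a mean of 4.62 to 3.12, both below the array medians. Abcc9, a subunit of potassium channels, rose by 0.33 (limma adjusted p = 0.038), a call kept in 4 of 12 omissions (adjusted p up to 0.089). The canalicular sterol transporter gene Abcg8 had a difference of -0.06 (limma adjusted p = 0.834), its partner Abcg5 of 0.24 (0.198) and the xenobiotic pump gene Abcg2 of -0.03 (0.883). Abcb1a, another transporter gene, had a difference of -0.57 (SE 0.20, limma adjusted p = 0.096). Over the omissions of 1 array this list had 0 to 2 genes higher and 1 or 2 lower, 2 of them lower without GFP 4.

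In the bile acid synthesis list 1 of 23 measured genes rose, 1 fell and 21 did not pass (median change 0.06). Slc27a5, which activates bile acids for conjugation, rose by 0.64 (SE 0.10, limma adjusted p = 0.0013), and Cyp7a1, the rate-limiting enzyme of synthesis, had a difference of 0.62 (SE 0.20, limma adjusted p = 0.080). Acnat1, an acyltransferase gene, fell by 0.40 (limma adjusted p = 0.044), and its call was kept in 3 of 12 omissions (adjusted p up to 0.10). The higher count of this list was 1 or 2 over the omissions (2 when GFP 2, 4 or 6 or hApoF 7, 9 or 12 was left out), and 3 with the trend and robust settings or with dim genes filtered out. None of the 9 measured genes of the bile acid feedback list passed (limma), where 1 higher and 1 lower gene had an unadjusted p under 0.05. The lowest p were those of Fgf21, a liver hormone gene (-0.58, limma adjusted p = 0.083), which passed as lower without hApoF 8 or hApoF 12, and of Gpbar1, a bile acid receptor gene (0.19, 0.232). Nr0b2, the gene of the FXR-induced repressor SHP, had a difference of 0.23 (SE 0.15, limma adjusted p = 0.415).

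Among 27 measured transcription factors known to act on transporter genes 1 rose, 2 fell and 24 did not pass (median change 0.07). Nr1i3, the gene of the xenobiotic receptor CAR, rose by 0.72 (SE 0.08, limma adjusted p = 5.3e-05, no overlap). Nfe2l2, the gene of NRF2, a factor known to induce Abcc2, Abcc3 and Abcc4, fell by 0.51 (SE 0.09, limma adjusted p = 0.0030, no overlap). Stat5a, a transducer of growth hormone signals, fell by 0.39 (limma adjusted p = 0.049), kept in 4 of 12 omissions (adjusted p up to 0.113). Nr1h4, the gene of FXR, had a difference of 0.23 (SE 0.07, limma adjusted p = 0.077) and Nr1i2, the gene of PXR, of 0.16 (0.147). The higher count was 2 without GFP 5 or hApoF 8 and with values quantile normalized again, and 3 with the trend and robust settings or with dim genes filtered out.

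Of 22 measured NRF2 target genes 10 fell, 0 rose and 12 did not pass, with a median change of -0.45. The glutathione transferase genes Gstm3, Gstm1 and Gstm4 fell by 1.25, 0.66 and 0.58 and the epoxide hydrolase gene Ephx1 by 0.70 (limma adjusted p = 4.4e-04, 4.7e-04, 0.0017 and 0.0022). The Gstm genes have near-identical copies. Abcc2, Abcc3 and Abcc4, which are known NRF2 targets in liver, had differences of 0.04, 0.06 and 0.01 in the same livers. Of 21 measured CAR and PXR targets 4 rose, 3 fell and 14 did not pass (median change 0.01). The risers included Alas1, the first enzyme of heme synthesis (0.48, limma adjusted p = 0.0029), and the fallers Cyp2c55 (-1.08, 0.0024), with Gstm1 and Gstm3 also in the NRF2 list. Without GFP 4 the count of lower CAR and PXR targets was 5, and without hApoF 10 1 NRF2 target was higher.

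**Figure D4:**
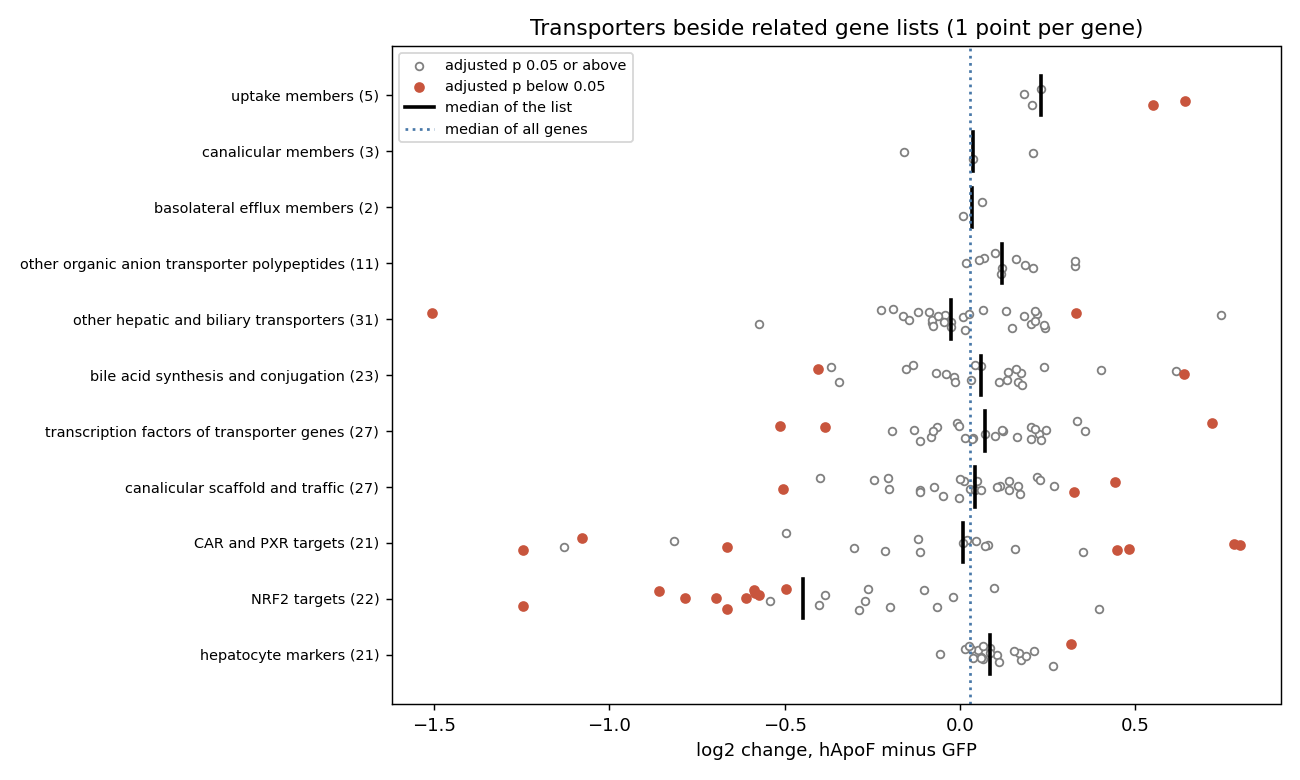
Log2 change (hApoF minus GFP) of each gene, by the role of the member genes and by related gene lists (rows, number of measured genes in brackets), with black bars for list medians and a dotted line for the median of all genes, 0.03. Filled points have an adjusted p below 0.05: 2 of 5 uptake genes lie to the right, and 10 NRF2 targets lie to the left.

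In the list of canalicular scaffold and traffic genes 2 of 27 rose, 1 fell and 24 did not pass (median change 0.04). The faller was Myo5b, a motor that carries transporters to the canaliculus (-0.50, SE 0.09, limma adjusted p = 0.0025, no overlap), and the risers Dpp4, a canalicular peptidase (0.33, limma adjusted p = 0.014), and Pdzk1ip1, a partner of the transporter scaffold PDZK1 (0.44, limma adjusted p = 0.030). Pdzk1ip1 kept its call in 5 of 12 omissions (adjusted p up to 0.074). The lower count was 2 without GFP 4 or hApoF 7, and 4 with the trend and robust settings or with dim genes filtered out.

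The known sex biases of Slco1a1 and Slco1a4 are opposite. Of 23 other measured male-biased genes 3 rose and 2 fell (median change 0.07), among them C8a, a complement gene (0.73, limma adjusted p = 4.5e-04), Susd4 (0.56, 0.0069), Cyp2u1 (-0.74, 2.3e-04) and Ces2e (-0.43, 0.0063). Without GFP 4 this list had 7 genes higher, without GFP 5 it had 6, and in the other omissions 2 or 3. Of 21 other female-biased genes 1 fell and 0 rose (median change -0.06). Means lay below the median of all probe sets for 10 of these 21 genes and for 1 of the 23 male-biased genes, which limits what the female-biased list can show. The faller was Cyp17a1, a steroid hydroxylase gene (-0.61, limma adjusted p = 0.042), whose call was kept in 4 of 12 omissions (adjusted p up to 0.097).

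Marker lists of the cell types of the liver differed in how many genes passed. The mean level of 21 hepatocyte markers was 11.88 to 11.98 in GFP and 12.01 to 12.06 in hApoF arrays, without overlap, although 1 gene of the list passed (Hpd, 0.32, limma adjusted p = 0.048, kept in 3 of 12 omissions). With array medians subtracted or values quantile normalized again 0 hepatocyte markers passed, and over the omissions 0 to 3. Endothelial markers had 5 of 20 higher and 0 lower, with mean levels of 7.18 to 7.56 and 7.48 to 7.74. Of these Clec14a, Rspo3, Kdr and Tek had the lowest p, with rises of 0.41 to 0.51. Kupffer cell and macrophage markers had 5 of 20 higher and 0 lower (6.53 to 7.28 and 6.91 to 7.51), and stellate cell and fibroblast markers 4 of 20 and 0 (6.85 to 7.15 and 7.12 to 7.36). The former included Ccr2, Clec4f, Cd163 and Vsig4, with rises of 0.46 to 1.38, and the latter were Rgs5, Hgf, Dcn and Pdgfrb, with rises of 0.26 to 0.54. Ccr2, Clec4f, Rgs5 and Hgf kept their calls in 12 of 12 omissions. Cd163 kept its call in 6, Vsig4 in 5, and Dcn and Pdgfrb in 3 each. Bile duct markers had 1 of 15 higher, Onecut2, and 1 lower, Krt23 (5.42 to 5.58 and 5.44 to 5.67). Of these 15 genes, 7 had means below the median of all probe sets. Among the 7 were the duct keratin Krt19, at 4.46 and 4.43, and the channel gene Cftr, at 3.38 and 3.67. Lymphocyte markers had 0 of 17 past the test (limma; 3 higher and 1 lower at an unadjusted p under 0.05) and neutrophil markers 2 of 12 higher, Mmp8 and S100a9, with 10 of 17 and 10 of 12 at means below the median of all probe sets. Over the omissions of 1 array the higher counts were 2 to 5 for Kupffer cell, 2 to 5 for stellate cell and 5 to 11 for endothelial markers, the last 11 without GFP 4. They were 1 or 2 for neutrophil markers and 0 to 2 for lymphocyte markers, 2 without GFP 4. The filter on dim genes removed Mmp8 and S100a9, whose means lay below the median of all probe sets, so neither was tested there. S100a9 kept its call in 3 of 12 omissions. The lowest p among lymphocyte markers were those of Cd79a (0.27, limma adjusted p = 0.063) and Cd4 (-0.25, 0.085). The part of these shifts in the rises of Slco1a1 and Slco1a4 was not tested. Of 14 housekeeping genes 0 passed (limma; 0 at an unadjusted p under 0.05; median change -0.02), the lowest p being those of Polr2a (-0.14, limma adjusted p = 0.313) and Tbp (-0.13, 0.394).

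Pericentral genes, a list that holds Slco1b2, had 7 of 19 higher and 0 lower (median change 0.32), led after Nr1i3 by Gulo (0.58, limma adjusted p = 0.0053), Slc1a2 (0.40, 0.019) and Lect2 (0.43, 0.022), and periportal genes 4 of 15 higher and 2 lower (0.17), led by Pigr (0.52, limma adjusted p = 7.6e-04), Pck1 (0.44, 0.0020), Hal (0.66, 0.021) and Igfbp2 (0.67, 0.021). Over the omissions the periportal list had 2 to 5 genes higher, 2 of them without GFP 2, GFP 3 or GFP 6. Its lower count was 2 without GFP 5 and 0 or 1 in the other omissions. The pericentral count was between 3 and 9 over the omissions of 1 array. Acute phase genes had 5 of 23 higher and 0 lower (median change 0.34), and between 1 and 8 higher over the omissions. They were led by Crp (0.38, limma adjusted p = 0.0051), Il6ra (0.42, 0.024), Orm1 (0.62, 0.034) and Mt1 (0.50, 0.035). Crp kept its call in 12 of 12 omissions, Il6ra in 9, Orm1 in 7 and Mt1 in 2. With array medians subtracted 3 genes of this list were higher.

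Array medians lay between 4.93 and 5.03, and correlations between arrays, across probe sets, between 0.982 and 0.993. The lower quartile of GFP 4 was 3.80, beside 3.66 to 3.72 in the other GFP arrays and 3.74 to 3.80 in the hApoF arrays. When array medians were subtracted or values were quantile normalized again, the changes of Slco1a1 were 0.52 or more and both calls stood.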

How the data were processed

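Liver RNA of 12 samples was measured on a mouse gene array, 1 array per sample. Per the submitters' processing notes the deposited log2 values come from oligo and RMA (background correction, quantile normalization and median-polish summary), with versions, build and annotation release not given in the sources used here. Probe sets were named through the supplied platform annotation, which can be old: of 35145 probe sets 23521 had 1 symbol, 1814 several and 9810 none listed. For 22180 genes the brightest probe set was used, by its mean over all arrays.

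Groups came from the sample titles. Differences were fitted with limma 3.58.1 (R 4.3.3; lmFit and eBayes, no covariates, no filter), two-sided, with Benjamini-Hochberg adjustment over all genes and a threshold of 0.05. The fit was tested on simulated data. Exact permutation tests used every assignment of 6 of the 12 arrays (Python 3.11.15, numpy 2.4.6). The number of arrays limits the precision. The 10 members, the gene lists and the tests were chosen with earlier results of these data known. Named are all members and the 3 genes most like a called member. Of each list, up to 4 genes past the test with the lowest p are named (2 where none passed). Also named, chosen after their values were seen, are Apof, Alb, Cyp7a1, Nr1h4, Nr0b2, Nr1i2, Abcb1a, Abcg2, Abcg5, Abcg8, Krt19, Cftr, Acot3, Acot4 and Serinc3. Probe sequences were not used here, so cross-hybridization between Slco1a paralogs was not tested. Alternatives covered array scaling, eBayes settings, the choice of probe set, a filter on dim genes, array weights and omission of arrays.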

Additional observations from a re-analysis of the deposited data

How the results depend on the processing

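For Slco1a1 the direction and the call were the same under all 21 alternatives (limma adjusted p 0.0025 to 0.043, the last from the exact permutation test). Slco1a4 kept its direction in all 21 and its call in 14. The direction could not change in alternatives that leave the difference itself as it is, such as the eBayes settings and the exact test. No member was called lower under any limma alternative. The number of members called higher was between 1 and 2 over the omissions of 1 array, where the pair was Slco1a1 and Abcb11 without hApoF 12. With trend and robust settings it was 3. The number of all genes called, 1533 in the fit of all arrays, was between 1015 and 1988 over the omissions, lowest without GFP 3 and highest without GFP 4. The difference of Abcc4 was -0.023 with array medians subtracted, -0.015 with array weights, -0.103 without GFP 4 and hApoF 12 together, and -0.081 to 0.096 over the omissions. The causes were not tested. The list counts were recomputed under the same alternatives, a choice made after seeing the data. No paired analysis was possible because the groups share no replicate numbers. Abcc4 and the dimmer Slco2b1 probe set lie near the array medians, which limits what they can show.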

Other observations

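Within groups, the level of Abcc4, which did not differ between them, followed that of 3 other genes closely. Over the 12 arrays, with each group's mean subtracted, Abcc4 correlated with Acot3 (Pearson's r = 0.96, Spearman's rho = 0.99), Serinc3 (0.96 and 0.93) and Acot4 (0.94 and 0.98), the highest of 10579 brighter named genes. Acot3 and Acot4 encode peroxisomal acyl-CoA thioesterases, and whether the probes of either also bind transcripts of the other was not tested. Without GFP 3 and GFP 5, the arrays farthest from the median for Abcc4, r was 0.97, 0.98 and 0.95. These genes were picked as the highest of many after the values were seen, and no test was made. Between groups Acot3 had a difference of -0.32 (SE 0.30, limma adjusted p = 0.586) and Acot4 of 0.02 (0.979).

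Among the members themselves, deviations from the group means correlated between -0.61 and 0.76 over 45 pairs, with a median of 0.04 and 24 pairs above 0. The highest values were those of Slco1a1 with Slc10a1 (r = 0.76, rho = 0.78) and of Abcc3 with Abcc4 (0.76 and 0.59), and the lowest that of Slco2b1 with Abcb4 (-0.61 and -0.41). In 22 groups of 6 arrays (11 probe sets, 2 groups each) Dixon's test marked 0 arrays as standing apart.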
